A study of Mus musculus with 89 samples.

Results

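Copper oxide (CuO) nanoparticles given to mouse lung at the lowest of 3 doses were compared with the vehicle alone. Members were chosen by the sample labels: core (unmodified) CuO at 2.5 μg/mouse with a PBS challenge, 3 samples, against PBS-challenged controls that received no nanomaterial, 7 samples, so 10 of the 89 samples of the series. All mice, controls included, were female BALB/c of 6 to 8 weeks that had been sensitised with ovalbumin (OVA) and Alum. The exposed mice then received CuO in Dulbecco's PBS by oropharyngeal aspiration on 4 consecutive days, the controls received PBS in the same way, and lung was taken 24 h after the last exposure. Further groups used below received 10 or 40 μg/mouse of CuO, or 2.5 μg/mouse of a carboxylated (CuO COOH), methylaminated (CuO NH3) or PEGylated (CuO PEG) particle, each with PBS, or 2.5 μg/mouse of CuO with an OVA challenge beside OVA-challenged controls. The materials were dosed by their whole mass, so the copper given differed between them. The RNA came from a part of the left lobe, taken after the lungs had been lavaged with PBS, so cells washed out of the airspaces were not in the tissue measured. Each sample was a pool of 2 such RNA preparations, labelled with Cy3 or Cy5 and read on 1 channel of a 2-colour microarray. The p-values therefore measure the spread between these pools, and in bulk lung tissue fewer cells of a type and less RNA per cell cannot be told apart.

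Copper that dissolves from CuO inside cells binds thiols and drives oxidative reactions, and cells answer with metallothioneins, small cysteine-rich proteins that hold zinc and copper, and with heme oxygenase and heat shock proteins. Injured airway epithelium and macrophages release chemokines that call monocytes and neutrophils into the lung. They also make acute phase proteins, among them serum amyloid A, that are better known from liver. Repair then brings division of epithelial cells and of incoming macrophages.

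The promoters of a pair of copper-handling genes, a heat shock gene and a cell division gene are shown because these genes are followed through the results. They are RefSeq windows of 300 bases on GRCm38.p6, read 5′ to 3′ on the strand of the gene, with motif matches in capitals. The Mt1 window lies at chr8:94178839-94179138 on the plus strand. It held 3 matches to the metal response element core, searched as TGCACNC or TGCGCNC on both strands.
Mt1 promoter: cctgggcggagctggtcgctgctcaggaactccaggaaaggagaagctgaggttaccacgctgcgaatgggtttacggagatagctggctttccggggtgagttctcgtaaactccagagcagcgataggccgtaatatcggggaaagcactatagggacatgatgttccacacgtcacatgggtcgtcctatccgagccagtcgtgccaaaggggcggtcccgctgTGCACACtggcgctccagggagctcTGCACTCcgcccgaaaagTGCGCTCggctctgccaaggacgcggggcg
The Mt2 window lies at chr8:94172368-94172667 on the plus strand and held 4 matches, 2 on each strand.
Mt2 promoter: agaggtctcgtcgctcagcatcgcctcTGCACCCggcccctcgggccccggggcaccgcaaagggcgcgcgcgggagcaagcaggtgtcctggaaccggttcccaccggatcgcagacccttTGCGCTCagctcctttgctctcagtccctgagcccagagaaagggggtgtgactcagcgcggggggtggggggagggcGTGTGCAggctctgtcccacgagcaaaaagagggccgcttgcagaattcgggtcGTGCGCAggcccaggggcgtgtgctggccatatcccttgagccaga
The Hspa1a window lies at chr17:34972107-34972406 on the minus strand, with 1 match to the heat shock element unit GAANNTTC.
Hspa1a promoter: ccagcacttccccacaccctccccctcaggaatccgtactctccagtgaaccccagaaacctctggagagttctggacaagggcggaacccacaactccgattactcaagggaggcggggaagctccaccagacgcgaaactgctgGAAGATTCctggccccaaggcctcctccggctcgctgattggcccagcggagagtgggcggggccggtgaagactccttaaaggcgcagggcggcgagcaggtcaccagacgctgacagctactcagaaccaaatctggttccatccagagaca
The Top2a window lies at chr11:99024140-99024439 on the minus strand, with 6 CCAAT boxes, 5 of them on the other strand, where they read ATTGG.
Top2a promoter: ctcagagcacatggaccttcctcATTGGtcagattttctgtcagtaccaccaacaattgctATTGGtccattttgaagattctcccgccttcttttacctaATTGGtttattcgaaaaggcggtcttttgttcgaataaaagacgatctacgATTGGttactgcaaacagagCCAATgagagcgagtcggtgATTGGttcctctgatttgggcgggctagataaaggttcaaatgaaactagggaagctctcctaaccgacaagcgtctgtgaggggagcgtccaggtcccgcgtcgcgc
Of all 32851 RefSeq promoter windows of this length, 25.7% held a metal response element match, 7.9% a heat shock element match and 37.4% a CCAAT box.

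Array quality set limits on the controls. The 3 exposed samples lay on slides 1, 2 and 3, each beside 1 control of that slide on another array, and the other 4 controls lay on slides 4 to 6. Median foreground intensity was 124.5 to 168 in the exposed samples and 105 to 175.5 in the controls of slides 1 to 3, against 62.5 to 86.5 in the controls of slides 4 to 6. Levels below are log2 intensities after quantile normalisation with dye, slide and array position removed. Log2 fold changes come from the limma fit with dye and array as batch terms, which compares a sample with its partner on the array, so a fold change can differ from the gap between the levels shown.

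At 2.5 μg/mouse, 208 of 22911 genes (0.908%) differed from the PBS controls at an adjusted p under 0.05 and a log2 fold change beyond 0.58. Of these 186 rose (0.812% of all genes) and 22 fell (0.096%). The median log2 fold change over all genes was 0.00124, and the medians of gene lists below are to be read against it. The 3 exposed samples lay on one side of all 7 controls for 201 of the 208 genes, against 19.9% of all genes. They lay above all controls for 182 of the 186 rises (10.3% of all genes) and below them for 19 of the 22 falls (9.64%). Within each of slides 1, 2 and 3 the exposed sample differed from its slide's control in the called direction for 206 of the 208. The genes were called on these same samples, so this agreement is partly built in, and its share over all genes was not counted. The 12 largest rises and 6 largest falls named below were taken only from called genes without overlap. For those genes the lack of overlap was set by that choice. The count rested on few samples: it was 50 without exposed sample 3, 111 without exposed sample 2, 101 without control 3, and 110 when only the controls of slides 1 to 3 were used. With each array centred on its median in place of quantile normalisation no gene passed, and 305 genes had an unadjusted p under 0.05.

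The largest rises were in acute phase proteins. Of 20 listed members 9 rose and none fell, with a median log2 fold change of 0.99. Saa3 (chr7:46711998-46719615), the serum amyloid A made locally by macrophages and epithelium, read 14.92, 15.74 and 14.97 in the exposed samples, while the controls had a lowest, median and highest level of 9.86, 11.11 and 12.25. The groups did not overlap, which the choice of the largest rises required, and the log2 fold change was 5.51 (SE 0.756, adjusted p = 0.000565). Saa1 (chr7:46740497-46743181), its neighbour on the chromosome, read 12.10, 13.10 and 12.10 against controls of 8.07, 8.41 and 9.30, again without overlap, with a log2 fold change of 4.76 (SE 0.584, adjusted p = 0.000512). Orm1, a plasma glycoprotein of the orosomucoid pair, read 9.89, 10.48 and 10.29 against 5.94, 6.55 and 7.24 and rose by 4.11 (SE 0.627, adjusted p = 0.00128). Its near copy Orm2, whose probes may share signal with Orm1, rose by 3.59. Lcn2, which withholds iron from bacteria by binding their siderophores, was already bright in the controls, at 11.54, 12.09 and 12.64, and read 15.44, 15.36 and 14.78 after CuO. Its log2 fold change was 3.62 (SE 0.481, adjusted p = 0.000512), and no exposed sample came near the highest control. Hp, which binds free haemoglobin, rose by 1.20, and the protease inhibitors Itih4 and Serpina3n rose by 1.67 and 1.75. Cp, the copper protein ceruloplasmin, rose by 0.73 (adjusted p = 0.0231). Saa3, Saa1, Orm1, Orm2 and Lcn2 stayed past the threshold when any 1 of the 10 samples was left out.

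**Figure D1:**
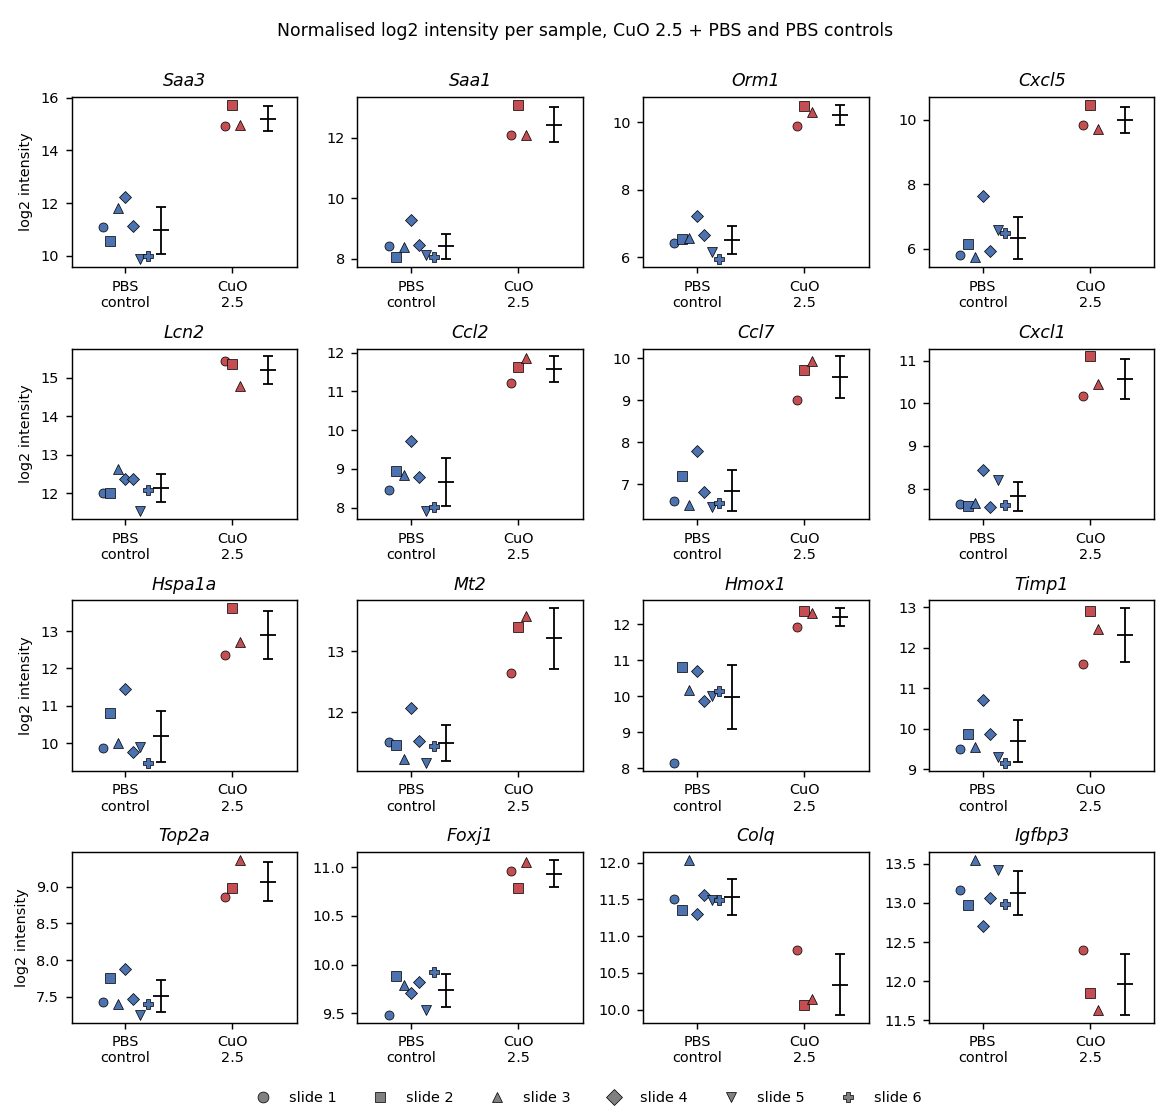
Log2 intensity of 16 named genes in each of the 3 exposed samples and 7 PBS controls, with the mean and SD of each group and a marker for each slide. Exposed levels of Saa3 (14.92 to 15.74) lay above all controls (9.86 to 12.25), and those of Colq (10.06 to 10.82) lay below all controls (11.30 to 12.04).

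Chemokines that draw monocytes formed the list with the highest median among the process lists. Of 11 members 7 rose, none fell, and the median log2 fold change was 1.96. Ccl2 (chr11:82035577-82037452), the main ligand of the monocyte receptor CCR2, read 11.21, 11.64 and 11.86 against controls of 7.90, 8.80 and 9.71. That is a log2 fold change of 3.47 (SE 0.595, adjusted p = 0.00313), and the groups did not overlap. Ccl7, a second CCR2 ligand that lies beside Ccl2 at chr11:82045712-82047525, read 9.001, 9.714 and 9.944 against 6.447, 6.602 and 7.795 and rose by 3.12 (SE 0.6, adjusted p = 0.00849). Ccl12 rose by 1.96, and the macrophage chemokines Ccl3 and Ccl4 rose by 2.203 and 2.717. Ccl9 and Ccl6, ligands of CCR1, rose by 1.73 and 1.28. Without exposed sample 3 the adjusted p of Ccl2 was 0.058 and that of Ccl7 was 0.0799, with log2 fold changes of 3.63 and 3.40. Without exposed sample 2 or exposed sample 3, 4 members of the list passed.

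Genes that recruit neutrophils moved in part, 4 of 13 rising with a median of 0.46. Cxcl5, a CXCR2 ligand made by epithelium, read 9.82, 10.46 and 9.72, while 4 of the 7 controls were above background and the controls had 5.75, 6.15 and 7.62. It rose by 3.96 (SE 0.609, adjusted p = 0.00128). Cxcl1, another CXCR2 ligand, read 10.17, 11.10 and 10.45 against 7.57, 7.65 and 8.44 and rose by 3.28 (SE 0.481, adjusted p = 0.00101). Both groups of samples were apart for each of these genes. Csf2, the growth factor GM-CSF, rose by 1.29, from control levels of 7.29 to 7.68 to exposed levels of 8.32 to 8.93. Cxcl2 rose by 1.58, but only 1 of the 7 controls was above background. No marker of neutrophils themselves passed in this lavaged tissue: 0 of 14 were called in limma, 2 had an unadjusted p under 0.05, the median was -0.01, and the mean of the list was 9.002 to 9.315 in exposed samples and 9.097 to 9.347 in controls. Those 2 were Retnlg and Ltf, which went opposite ways, at -1.14 and 1.36 (adjusted p = 0.258 and 0.41). S100a8 and S100a9, the abundant calcium-binding proteins of neutrophils, had log2 fold changes of -0.58 and -0.77 (adjusted p = 0.79 and 0.692). Cxcr2 and Camp were above 0, at 0.43 and 0.22 (adjusted p = 0.796 and 0.863).

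Other inflammatory signals gave fewer calls. Of 16 TNF and NF-kB feedback genes 2 rose (median 0.51). Tnf itself read 7.42, 7.49 and 7.59 against 6.45, 6.53 and 6.69, a log2 fold change of 1.42 (SE 0.32, adjusted p = 0.0311). Il1rn, the natural antagonist of interleukin 1, rose by 1.23. Neither passed without exposed sample 1, exposed sample 2 or control 3. Over the 10 fits that each left out 1 sample, Tnf lost its call in 4 (adjusted p up to 0.114) and Il1rn in 8 (up to 0.164). None of 12 IL-6 family and STAT3 genes passed (median 0.25). None of 15 interferon response genes passed either, although all 15 had a log2 fold change above 0 and their median was 0.69. Cxcl10, an interferon-induced chemokine, had 2.29 with an adjusted p of 0.261. Acod1, which makes itaconate in activated macrophages, read 8.71, 9.13 and 9.68 against 6.06, 6.55 and 7.80 and rose by 3.15 (SE 0.735, adjusted p = 0.037), a call lost in 5 of these 10 fits (adjusted p up to 0.129). Cxcl13, the chemokine that attracts B cells, rose by 2.88, with exposed samples at 9.14 to 10.91 and controls at 6.87 to 8.04, and without exposed sample 3 its adjusted p was 0.181.

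Among the genes that handle copper and other metals, the metallothioneins rose. Mt2 read 12.65, 13.41 and 13.58 against controls of 11.17, 11.46 and 12.08, without overlap, with a log2 fold change of 2.27 (SE 0.292, adjusted p = 0.000512). Mt1 read 10.55, 11.08 and 11.12 against 9.75, 10.01 and 10.42 and rose by 1.22 (SE 0.176, adjusted p = 0.000991). Steap4, a reductase that acts on iron and copper at the membrane, rose by 1.76. The other 16 of the 19 members did not pass, and the median of the list was 0.02. Of the 19, 11 had a log2 fold change above 0. The metal importer Slc39a14 had 0.72 (adjusted p = 0.162). The zinc exporter Slc30a1 and the copper pump Atp7a had -0.35 and -0.25, with adjusted p of 0.381 and 0.488. A metal response element match stood in the promoter windows of 7 of 14 members, 50.0%, against 28.2% of 27025 genes.

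Oxidative stress and heat shock genes each gave 1 call. Hmox1, which degrades heme, read 11.93, 12.37 and 12.32 against controls of 8.14, 10.15 and 10.81 and rose by 2.04 (SE 0.294, adjusted p = 0.000991). Control 1 was far below the other controls, and without it the log2 fold change was 1.96. The other 23 of 24 Nrf2 and oxidative stress genes did not pass. Of the 24, 20 had a log2 fold change above 0 (median 0.39), and 13 had an unadjusted p under 0.05 in limma. Slc7a11 had 0.86 (adjusted p = 0.0826) and Abcc1 had 0.64 (adjusted p = 0.0683). Nqo1, a quinone reductase often used as an Nrf2 readout, had 0.01. Hspa1a, an inducible HSP70, read 12.36, 13.61 and 12.71 against 9.47, 9.89 and 11.45 and rose by 3.31 (SE 0.775, adjusted p = 0.0378). This call, the only one of the heat shock list, was lost in 7 of the 10 fits that each left out 1 sample (adjusted p up to 0.139), among them each fit without an exposed sample. Its near-identical copy Hspa1b, whose RNA may bind the same probes, had 2.44 with an adjusted p of 0.277. Of 14 heat shock genes 13 had a log2 fold change above 0 (median 0.51), and 9 of 12 with a promoter window held a heat shock element match, 75.0%, against 9.0% of all genes.

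Genes of mitosis were the largest group to rise together. Of 32 members 18 passed, none fell, all 32 had a log2 fold change above 0, and the median was 0.96. The mean level of the list was 8.41 to 8.78 in the exposed samples and 7.38 to 7.90 in the controls. Top2a, which untangles DNA before cell division, read 8.86, 8.99 and 9.37 against 7.25, 7.42 and 7.88 and rose by 1.55 (SE 0.202, adjusted p = 0.000512). Mki67, a protein of dividing nuclei, read 10.36, 10.51 and 10.98 against 8.70, 8.93 and 9.59 and rose by 1.54 (SE 0.201, adjusted p = 0.000512). In both the lowest exposed sample lay above the highest control. Rrm2, a subunit of the enzyme that makes deoxynucleotides, rose by 1.44, and the mitotic kinase Aurka rose by 1.33. Without exposed sample 3, 3 of the 32 passed, and Top2a and Mki67 were kept. A CCAAT box stood in the promoter windows of 19 of 26 members, 73.1%, against 41.1% of all genes.

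**Figure D2:**
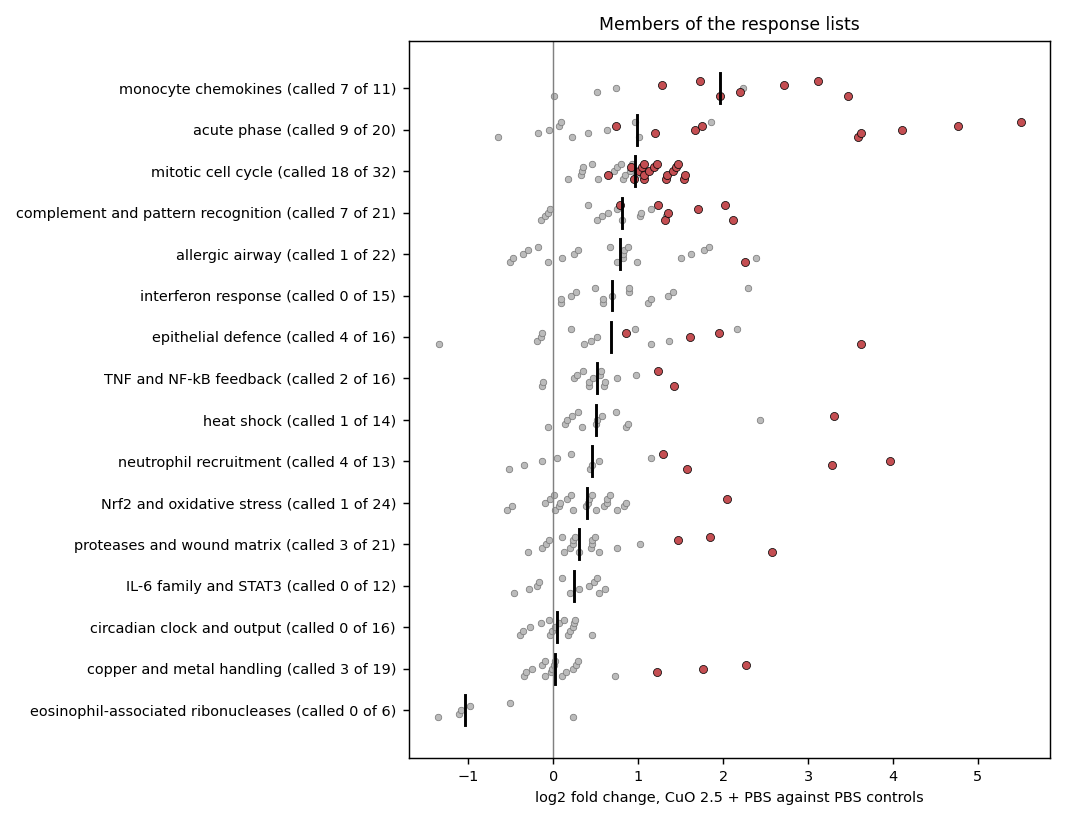
Log2 fold change of CuO 2.5 μg/mouse against PBS controls for each member of the process lists, with called genes in red and the median of each list as a black bar. The mitotic list lay wholly above 0 (18 of 32 called) and the copper list centred near 0 (3 of 19 called).

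Host defence genes rose in smaller shares. Of 21 complement and pattern recognition genes 7 rose (median 0.81). Cfb, factor B of the alternative pathway, read 11.36, 11.53 and 11.54 against 9.35, 9.75 and 10.04 and rose by 2.12 (SE 0.417, adjusted p = 0.0102). Cd14, the co-receptor for endotoxin, read 11.48, 11.76 and 11.66 against 9.69, 9.90 and 10.17 and rose by 2.02 (SE 0.276, adjusted p = 0.000565). The complement genes C3, C1qb, C1qc and C1ra rose by 1.23, 1.31, 1.35 and 0.79, and Clec4d, a lectin of myeloid cells, by 1.70. On leaving out 1 sample 1 to 6 of the 21 passed, the fewest without exposed sample 3 and 4 without exposed sample 1, exposed sample 2 or control 2. Of 16 epithelial defence genes 4 rose (median 0.68). They were Lcn2, Pigr, which carries IgA across epithelium, by 0.85, Wfdc17 by 1.95 and Wfdc21 by 1.61. Only Lcn2 of the 16 passed without exposed sample 3, and Wfdc21 lost its call in 6 of the 10 fits that each left out 1 sample (adjusted p up to 0.282).

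Of 21 protease and wound matrix genes 3 rose, with a median of 0.31. Timp1, an inhibitor of metalloproteinases, read 11.60, 12.89 and 12.45 against 9.15, 9.54 and 10.71 and rose by 2.57 (SE 0.547, adjusted p = 0.0199). Spp1, osteopontin, read 12.00, 12.72 and 12.90 against 10.15, 10.64 and 11.29 and rose by 1.85 (SE 0.315, adjusted p = 0.00302). Mmp3, a metalloproteinase of stroma, rose by 1.47. Without exposed sample 3 only Timp1 passed, with adjusted p of 0.0679 for Spp1 and 0.0799 for Mmp3, and Timp1 lost its call without exposed sample 2, control 2 or control 3 (adjusted p up to 0.0897). Of 22 allergic airway genes 1 rose (median 0.79): Ccl17, a ligand of CCR4, read 10.38, 10.47 and 10.91 against 8.17, 8.40 and 9.23 and rose by 2.26 (SE 0.377, adjusted p = 0.00255). Its adjusted p was 0.0799 without exposed sample 3. The alarmin Il33 read 9.61, 10.39 and 10.32 against 8.88, 9.14 and 9.39, with a log2 fold change of 0.89 that did not pass (adjusted p = 0.107). The eotaxin Ccl11 had 0.29 (adjusted p = 0.797), and Il13 had -0.07 (adjusted p = 0.924) and was above background in 0 of 3 exposed samples and 1 of 7 controls. None of 16 circadian clock genes passed (median 0.05).

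The largest of the 22 falls was in Colq. This protein anchors acetylcholinesterase, and its gene read 10.82, 10.06 and 10.15 against controls of 11.30, 11.49 and 12.04 and fell by 1.40 (SE 0.322, adjusted p = 0.0334). Igfbp3, a carrier of insulin-like growth factors, read 12.39, 11.85 and 11.64 against 12.71, 13.06 and 13.55 and fell by 1.19 (SE 0.266, adjusted p = 0.0284). Exposed and control samples did not overlap in either gene, which the choice of the largest falls required. Prdm8 fell by 1.09, and its call was lost without exposed sample 2 or control 3 (adjusted p up to 0.081). Pon1, an antioxidant esterase, fell by 1.00, and its call was lost in 8 of the 10 fits that each left out 1 sample (adjusted p up to 0.223). Enpp3 and Dnmt3aos each fell by 0.86, but with slide and array position in place of array as batch terms they had -0.31 and -0.33 and did not pass. Colq and Igfbp3 each lost the call in 4 of the 10 fits that each left out 1 sample. Their adjusted p was highest without exposed sample 3, at 0.299 for Colq and 0.196 for Igfbp3. None of 6 eosinophil-associated ribonucleases passed, with a median of -1.04. Ear2 had -1.36 (adjusted p = 0.107). Despite the family name, Ear1 and Ear2 also stand in the alveolar macrophage marker list used below.

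Marker lists of cell types gave few calls. Markers of lung itself were bright, with a mean level of 14.91 to 14.93 for alveolar type 2, 12.88 to 13.25 for alveolar type 1, 15.24 to 15.56 for club cell and 12.38 to 12.80 for endothelial markers in the exposed samples. Sftpd, a collectin of surfactant, read 16.57, 16.75 and 16.87 against 15.83, 15.94 and 15.99 and rose by 1.39 (SE 0.186, adjusted p = 0.000512). It was the only one of 9 alveolar type 2 markers to pass, and Sftpc had -0.14. Foxj1, the master factor of motile cilia, read 10.96, 10.78 and 11.06 against 9.48, 9.78 and 9.93 and rose by 1.41 (SE 0.283, adjusted p = 0.0124). It was the only one of 10 ciliated cell markers to pass (median 0.39), and without exposed sample 3 its adjusted p was 0.208. Siglecf, a receptor that alveolar macrophages and eosinophils both carry, read 8.59, 8.49 and 8.70 against 8.83, 9.13 and 9.31 and fell by 0.80 (SE 0.191, adjusted p = 0.0437). This call was lost in 8 of the 10 fits that each left out 1 sample (adjusted p up to 0.251). The other 16 of 17 alveolar macrophage and 6 of 7 eosinophil markers did not pass, with medians over the lists of -0.05 and -0.47.

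Of 16 monocyte and recruited macrophage markers 1, Cd14, rose (median 0.62). The mean of that list was 10.14 to 10.56 in exposed samples and 9.55 to 9.96 in controls, and its part in the rise of the chemokine and complement genes was not tested. None of 8 goblet cell markers passed, although all 8 were above 0 with a median of 1.56. Their mean level spread from 9.66 to 11.81 in the exposed samples, against 8.34 to 9.29 in the controls. Agr2, needed for mucin folding, read 9.07, 9.36 and 10.93 against 7.41, 7.89 and 8.54 (log2 fold change 1.84, adjusted p = 0.218). None of the markers of T cell (18), B cell and plasma cell (12), NK cell (8), dendritic cell (10), alveolar type 1 (7), club cell (6), endothelial (10), fibroblast and smooth muscle (11), cardiac and skeletal muscle (11), erythrocyte (8) or platelet (7) lists passed, with medians from -0.61 to 0.06.

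**Figure D3:**
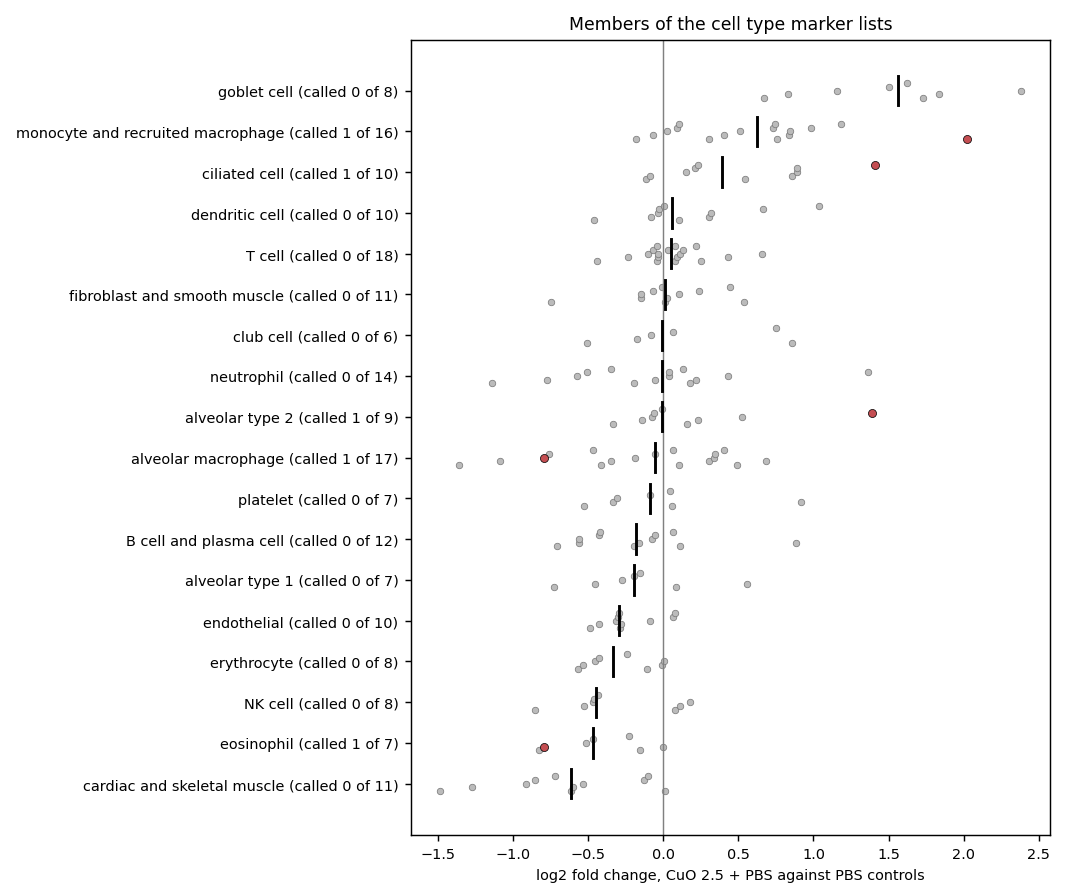
Log2 fold change of CuO 2.5 μg/mouse against PBS controls for each marker of each cell type list, with called genes in red and the median as a black bar. Calls were Sftpd (1.39) and Foxj1 (1.41), Cd14 (2.02), and Siglecf (-0.80), which stands in 2 lists, while goblet cell markers had the highest median (1.56) with no call.

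The response at 2.5 μg/mouse was then set beside the higher doses. Against the same 7 controls, 816 genes (3.56%) were called at 10 μg/mouse and 3218 (14%) at 40 μg/mouse. These comparisons share their controls, so the doses were also compared directly. No gene differed between 10 and 2.5 μg/mouse (limma, 1069 genes with an unadjusted p under 0.05), and 4 genes did with the replicate number as a block. The interval of that difference was wide, -1.40 to 2.67 for Saa3 (log2 difference 0.64) and 0.85 to 2.54 for Spp1 (1.70). Between 40 and 2.5 μg/mouse 958 genes (4.18%) differed, 586 higher (2.56%) and 372 lower (1.62%) at 40. That count was 0 without sample 2 of the 40 μg/mouse group (limma, 2770 with an unadjusted p under 0.05) and 330 without exposed sample 3 of the 2.5 μg/mouse group.

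Some genes were higher again at 40 μg/mouse, and for others no step was detected. Saa3 had mean levels of 15.21 ± 0.46 at 2.5, 15.24 ± 0.35 at 10 and 15.47 ± 0.70 at 40 μg/mouse (SD, n = 3 each), and its log2 difference from 2.5 to 40 was 0.65 with an interval of -1.35 to 2.66. Spp1 had 12.54 ± 0.47, 13.30 ± 0.17 and 14.48 ± 0.11 (SD, n = 3 each), a difference of 3.00 from 2.5 to 40 (interval 2.16 to 3.84, adjusted p = 0.000486). The metallothionein Mt2 differed by 1.88 (adjusted p = 0.00481), Mt1 by 1.39 and Hmox1 by 1.92. Mki67 differed by 1.39 (interval 0.85 to 1.92, adjusted p = 0.00296), and 25 of 32 mitotic genes were higher at 40. Of the 11 monocyte chemokines 1 was higher at 40, and Ccl2 had a difference of 1.61 (interval 0.03 to 3.19, adjusted p = 0.287). Csf2 went the other way, from 8.63 ± 0.31 to 7.56 ± 0.27 (SD, n = 3 each), a difference of -1.10 (adjusted p = 0.0435). Colq and Igfbp3 were lower still at 40, by differences of -2.49 and -2.47. Foxj1 had a difference of 0.13 with an interval of -0.62 to 0.88. The largest steps were in Retnlb (4.66), a goblet cell peptide, Cstdc5 (4.20) and Stfa1 (3.57) upward, and in Fabp1 (-4.38) and the haemoglobin genes Hbb-bt and Hbb-b1 (-3.29 each) downward.

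**Figure D4:**
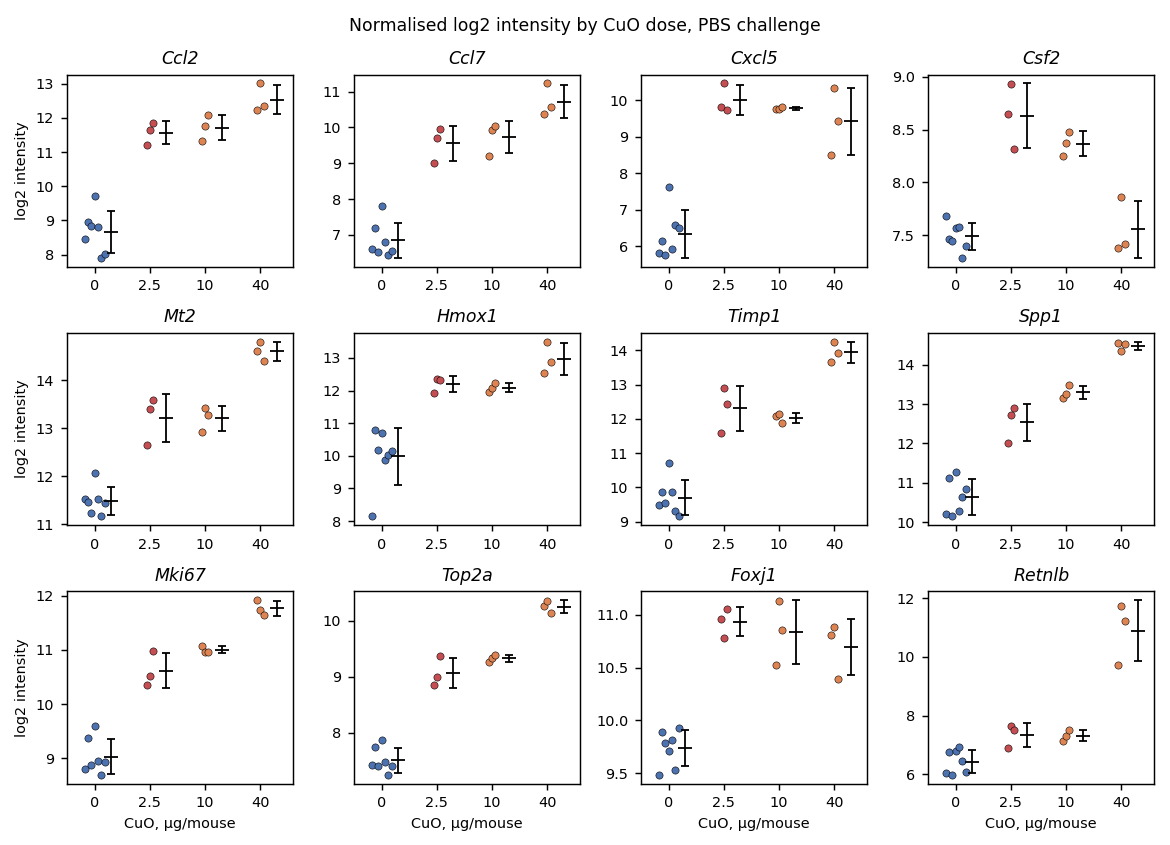
Mean log2 intensity ± SD of 12 genes at 0, 2.5, 10 and 40 μg/mouse of CuO with PBS challenge, with each sample as a point. Doses are evenly spaced on the axis and not to scale. Means of Spp1 were 12.54, 13.30 and 14.48 at the 3 doses, those of Foxj1 were 10.94, 10.84 and 10.70, and Csf2 had its highest mean at 2.5 (8.63).

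Surface-modified particles at the same mass dose were compared with CuO in 3 direct contrasts, with dye, slide and array position as batch terms. CuO PEG differed in 425 genes (1.86%), 98 higher (0.428%) and 327 lower (1.43%) than CuO. Saa3 averaged 10.72 ± 0.18 with CuO PEG and 15.21 ± 0.46 with CuO (SD, n = 3 each), a difference of -4.49 (interval -5.97 to -3.01, adjusted p = 7.59e-05). Lcn2 differed by -3.34, Ccl2 by -2.72, Mt2 by -1.87 and Mki67 by -1.62, and 24 of 32 mitotic genes were lower. Pon1, Colq and Bex2 were higher with CuO PEG, by 1.31, 1.17 and 1.13. Apart from Bex2, the single genes named here were called against PBS controls with these same CuO samples. The sign of their differences is thus partly built in by the choice of genes. CuO PEG and CuO NH3 lay on slides 4 to 6 and CuO on slides 1 to 3. Only the PBS and OVA controls lay on both sets of slides, so these contrasts are linked by the controls alone. Without exposed sample 3 of CuO the count was 206, and without sample 3 of CuO PEG it was 240.

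CuO COOH, which lay on slides 1 to 3 like CuO, differed in 43 genes (0.188%), 10 higher (0.0436%) and 33 lower (0.144%). Orm1 differed by -2.67 (interval -3.51 to -1.84, adjusted p = 0.000356), Orm2 by -2.36 and Acod1 by -2.32. Saa3 averaged 12.89 ± 1.21 (SD, n = 3), a difference of -2.32 that did not pass (adjusted p = 0.0538). Mki67 differed by -0.31 (interval -0.67 to 0.05). These genes too were called against PBS controls with the same CuO samples, so the sign of their differences is partly built in. With array as a batch term no gene passed (limma, 1107 with an unadjusted p under 0.05), and without sample 2 of CuO COOH 2 did. For CuO NH3 no gene differed from CuO (0 of 22911, 1155 with an unadjusted p under 0.05 in limma), but with array as a random block 798 genes did. The intervals were -1.47 to 1.58 for Saa3 (difference 0.06), -1.09 to 1.27 for Ccl2 (0.09) and -0.61 to 0.33 for Mki67 (-0.14).

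**Figure D5:**
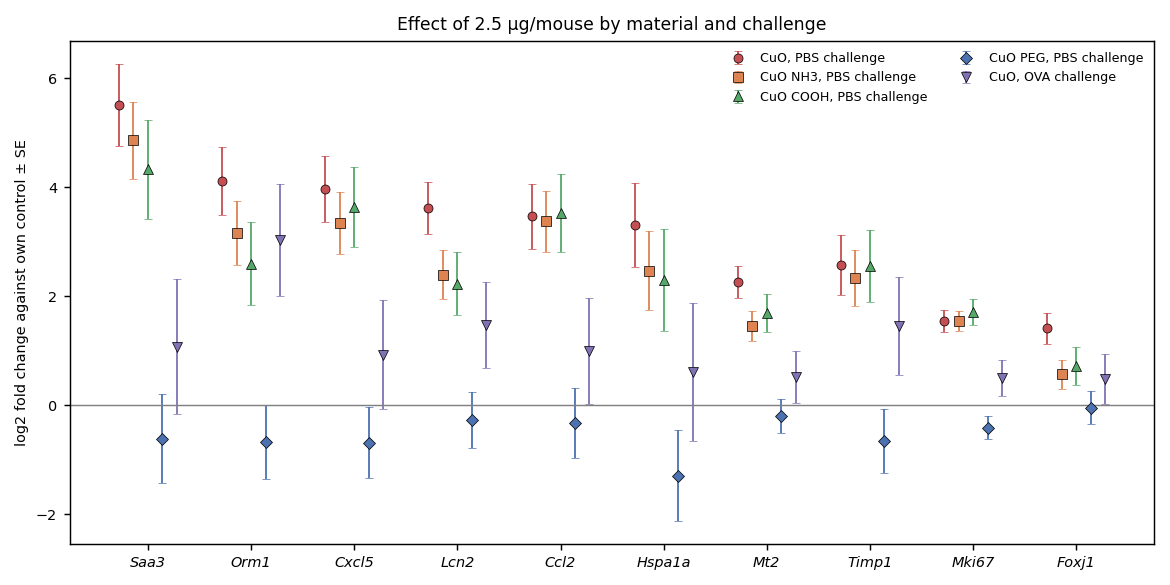
Log2 fold change ± SE of 10 genes against the matching controls for CuO, CuO NH3, CuO COOH and CuO PEG at 2.5 μg/mouse with PBS challenge and for CuO with OVA challenge. The values come from the fit with array as a batch term, and the 4 PBS-challenged groups share their controls. For CuO with OVA challenge that fit rests on 1 sample. For Saa3 they were 5.51 for CuO, 4.86 for CuO NH3, 4.33 for CuO COOH and -0.61 for CuO PEG.

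With an OVA challenge, 2 of the 3 samples of this dose of CuO were alone on their arrays. These add nothing to a fit with array as a batch term, which then rests on the other sample. That fit cannot decide whether CuO changed any gene against OVA-challenged controls. The effect of CuO differed between the challenges for 399 genes (1.74%), 78 with a higher (0.34%) and 321 with a lower (1.4%) effect under OVA. Batch terms in this test were dye, slide and array position. With array as a batch term the same limit applied, so the 399 could not be checked that way. Saa3 was at 13.22 to 14.77 in the 8 OVA controls and at 13.62 to 13.91 after CuO with OVA, so the groups overlapped. Its effect of CuO was lower under OVA (log2 difference -4.28, interval -5.76 to -2.80, adjusted p = 0.000212). Mki67 was at 10.90 to 11.73 in OVA controls and at 11.30 to 11.47 after CuO, and Ccl2 at 10.76 to 12.62 and 11.12 to 11.87. Hmox1 was at 10.94 to 11.93 and 12.17 to 12.60, without overlap, and its difference in effect of -1.42 did not pass (adjusted p = 0.0754). Csf2 was at 7.44 to 7.72 in OVA controls and at 7.48 to 7.53 after CuO. Of the 32 mitotic genes 26 had a lower effect under OVA, and of the 11 monocyte chemokines 7.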

How the data were processed

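Lung RNA of 89 samples in 26 groups was measured on 46 Agilent 8x60K 2-colour mouse arrays. The deposited scanner files hold intensity per spot, and the authors' table of log2 values holds quantile-normalised data. Its largest difference was 0.0615 from the foreground values quantile normalised without leaving out any spot. The submitters' processing notes name Agilent Feature Extraction and limma. Members and gene lists were chosen with earlier results of these data known.

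Median foreground intensity was taken as log2, and spots flagged as outliers were set to missing. The values were then quantile normalised and averaged per gene over 32994 probes with a gene name (22911 genes). All 26 groups were fitted with limma 3.58.1 in R 4.3.3, with dye and array as terms, or dye, slide and array position for materials and challenge. The call rule was an adjusted p (Benjamini-Hochberg over all genes) under 0.05 with a log2 fold change beyond 0.58 in size. Intervals are 95%. Arrays give no read depth, so the number of samples limits precision. On simulated data the comparison with PBS controls recovered 71.6% of genes changed by 1, 94% by 1.5 and 100% by 2 on the log2 scale, with 9 false calls. The simulated noise was independent between samples, unlike the same-numbered samples described below, so recovery in the real data may be lower.

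Named were the 12 largest rises and 6 largest falls without overlap, the 4 called members of each list with the smallest p, or the 2 with the smallest p where none was called, 6 genes the study measured by other assays, and 3 rises and 3 falls of each other comparison. Members named outside that rule were chosen after their values were seen. Same-numbered samples of 2.5 and 10 μg/mouse deviated together (r from 0.206 to 0.502), as did those of 2.5 and 40 μg/mouse (0.124 to 0.417), so these steps were also fitted with the number as a block. Alternatives covered batch terms, background correction, normalisation, filters and each sample left out.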

Additional observations from a re-analysis of the deposited data

Results flagged for a closer look

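Several PBS controls stood apart from the other 6 for single genes. Saa1 was high in control 4, at 9.30 against a next value of 8.48, and Mt2 was high in the same control, at 12.08 against 11.53. Colq was high in control 3, at 12.04 against 11.56. Hmox1 was low in control 1, at 8.14 against 9.86. Of 52 genes examined 4 had such a control, and chance gives about 1 in 20.

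The effect of CuO at 2.5 μg/mouse differed between OVA and PBS challenge for 39 of the 52 named genes, by the interaction test with dye, slide and array position as batch terms. Over all genes it differed for 399 of 22911 (1.74%). Of the 52 genes, 46 were called against PBS controls, and this test subtracts that same difference. The share among named genes and the sign of their values are thus partly built in by the choice of genes. With array as a batch term 2 of the 3 samples of CuO with OVA add nothing, so the test could not be checked that way. Each effect was measured against the controls of its own challenge, and OVA controls differed from PBS controls in 1195 genes. The values below are log2 differences, OVA minus PBS. Among acute phase genes they were -4.28 for Saa3, -4.01 for Saa1, -2.55 for Orm1, -2.09 for Orm2 and -2.55 for Lcn2. Among chemokines and growth factors they were -3.05 for Ccl2, -2.86 for Ccl7, -1.49 for Ccl9, -0.73 for Ccl6, -3.10 for Cxcl5, -2.77 for Cxcl1, -1.45 for Cxcl2, -2.53 for Cxcl13, -2.29 for Ccl17 and -1.23 for Csf2. Among cytokine and macrophage genes they were -1.11 for Tnf, -1.37 for Il1rn, -0.88 for Il33 and -3.15 for Acod1. Metal and heat shock genes had -1.65 for Mt2, -1.78 for Steap4 and -2.76 for Hspa1a. Mitotic genes had -1.42 for Top2a, -1.53 for Mki67, -1.20 for Rrm2 and -1.28 for Aurka. Defence genes had -1.38 for Wfdc17, -0.67 for Pigr, -1.52 for Wfdc21, -1.57 for Cd14, -1.06 for Clec4d, -1.02 for C1ra and -2.15 for Cfb. Matrix and cilia genes had -1.30 for Mmp3, -3.03 for Timp1 and -1.10 for Foxj1. The genes that fell with PBS had values above 0, at 1.05 for Colq, 0.88 for Igfbp3 and 1.04 for Prdm8.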

How the results depend on the processing

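The 208 genes called against PBS controls became 551 with dye, slide and array position, 827 with array as a random block, 476 with the replicate number as a block, 411 with loess and Aquantile, 110 with controls of the shared slides only, 0 with median centring (median SE 0.511, against 0.173) and 143 with only slides 1 to 3. Leaving out 1 sample gave 50 to 228. The 46 called among 52 named genes kept their direction under all 21 alternatives, and 17 kept their call whichever sample was left out. Same-numbered exposed and control samples did not deviate together in all pairs (r = 0.074, 0.225 and -0.129).

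Between 10 and 2.5 μg/mouse, 0 calls became 6 with slide and 4 with the replicate block. Between 40 and 2.5 μg/mouse, 958 became 0 with median centring and 0 to 1162 on leaving out 1 sample. For CuO COOH, 43 became 0 with dye and array, 9 with the random block and 13 with median centring, and 2 to 39 on leaving out 1 sample. For CuO NH3, 0 became 798 with the random block and 945 with the replicate block. For CuO PEG, 425 became 1625 and 1786 with those blocks, 38 with median centring, and 206 to 447 on leaving out 1 sample. For the challenge, 399 became 235 with the random block, 44 with median centring, and 203 to 452 on leaving out 1 sample. With dye and array that test rests on 1 sample of CuO with OVA, so no count is given. The causes were not tested.

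Among single genes, Pltp reversed to -0.29 in the challenge test with dye and array, which rests on 1 sample of CuO with OVA. Il13 turned to 0.06 with the random block, 0.05 with the replicate block, 0.07 with median centring, 0.04 with controls of the shared slides, 0.04 with only slides 1 to 3 and 0.03 without exposed sample 2. Ccl11 turned to -0.30 with median centring, -0.01 without control 2 and 0.00 without exposed sample 3. On leaving out 1 sample Il13 ranged from -0.16 to 0.03 and Ccl11 from -0.01 to 0.44.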

Other observations

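Genes that program multiciliated cells, a list chosen after their values were seen and so not tested, held 4 called rises among 12. Foxn4, a transcription factor of that program, was at 9.37 to 10.18 in the exposed samples and 7.27 to 8.33 in the controls, and rose by 2.25 on the log2 scale (adjusted p = 0.00103). Ccno, needed to multiply centrioles, was at 10.38 to 11.17 against 8.64 to 9.70 and rose by 1.92. Deup1, which builds the platforms on which centrioles form, was at 8.81 to 9.53 against 7.52 to 8.07 and rose by 1.70. Gmnc and Mcidas, which act at the start of the program, had 0.00 and 0.11.

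Subunits of NADPH oxidase 1 were also read after their values were seen. The organiser Noxo1 was at 10.88 to 11.35 against 8.95 to 9.45 and rose by 1.97 (adjusted p = 0.00175), and the activator Noxa1 was at 9.94 to 10.30 against 8.50 to 8.95 and rose by 1.55 (adjusted p = 0.0142). The catalytic subunit Nox1 had 0.04. Of 49 histone genes taken by symbol, linker histones included, 8 rose and 39 were above 0, with a median of 0.34. Near-identical copies can share probes.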
